A study of Mus musculus with 16 samples.

Results

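The 10 stress-response genes described here are Atf4, Ddit3, Nupr1, Trib3, Chac1, Ddit4, Sesn2, Gadd45a, Gadd45b and Gadd45g, out of 52636 gene identifiers counted. They were chosen by name, as the rows whose Ensembl identifier maps to these symbols, and all 10 were present. Ddit4 and Nupr1 had been put forward because earlier results of these data placed them among the deepest decreases after ERK induction (Ddit4 also in rev against 0h), and Gadd45b because it was among the strongest increases after MEK inhibition. The values that chose these 3 genes, and their other comparisons between groups that share a library group with those, are given as a description, without a test. The other 7 entered as relatives by pathway or family, with the same results known, so their p-values are no independent support.

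The cells were CRAFR26, a mouse embryonic stem cell line carrying a c-RAF kinase construct that 4-hydroxytamoxifen (4OHT) switches on, which activates the ERK pathway. All groups had been kept on gelatine in N2B27 medium with LIF and the GSK3 inhibitor CHIR99021, and for 48 h the FGF receptor inhibitor PD17 (PD173074, 250 nM) had stood in for the MEK inhibitor PD03 of that medium. The groups were 0h (PD17 alone), 2h and 4h (2 h or 4 h of 4OHT at 250 nM), and rev, in which 4 h of 4OHT were followed by 2 h of a MEK inhibitor (MEKi). Each group held 4 libraries, 2 replicates of each of 2 clones (clone 4 and clone 8). The labels name neither the inhibitor of the last step nor the promoter of the construct, and do not say that replicates were grown separately, so the p-values measure the spread between these libraries, which may be technical. Vehicle-treated cells and cells held for 6 h in 4OHT were not analysed here, so ERK induction and 4OHT exposure, or MEK inhibition and the 2 further hours, cannot be told apart. The labels do not say whether PD17 stayed in the medium during 4OHT, so a change in its presence cannot be told apart either.

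Total counts per library ran from 2172651 to 12680303, and a count of 3, taken as the floor, stood for 0.213 to 1.35 CPM (counts scaled to a common library size), covering counting error only. The 8 most abundant gene models took 42.0% to 62.4% of counts at 4h and 55.1% to 80.4% in rev. The rev library of clone 8 replicate 2 stood apart with the highest share and the lowest scaling factor (0.463), and results in rev are given without it where its absence changes them. Dusp6, a transcriptional reporter of ERK activity, had mean levels of 1.25, 30.2, 55.2 and 1.59 CPM in 0h, 2h, 4h and rev. The summed level of 9 embryonic stem cell markers was 1770 to 2548 CPM in every library, whereas 6 fibroblast markers summed to at most 7.66 CPM, with Postn and Dcn at 0. The summed level of 3 mesoderm markers was 7.60 to 19.98 CPM at 4h against 1.497 to 4.07 at 0h, and that of 4 trophectoderm markers 10.5 to 17.9 against 4.34 to 9.51. Their part in the results below was not tested.

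In the integrated stress response, kinases that sense lack of amino acids, unfolded protein or other stress phosphorylate the initiation factor eIF2alpha, which lowers general translation while favouring that of the transcription factor ATF4. ATF4 and its partners then raise genes of amino acid supply, redox balance and, if the stress lasts, cell death, among them Ddit3, Trib3, Chac1, Nupr1, Sesn2 and Ddit4. DDIT4 and SESN2 restrain the growth kinase complex mTORC1 by different routes. The GADD45 proteins are small stress-induced partners of kinases of the p38 and JNK arm and of cell cycle and DNA repair proteins. The family members respond to different signals, such as p53 for Gadd45a and NF-kappaB or TGF-beta for Gadd45b. In embryonic stem cells, ERK signalling downstream of FGF4 favours exit from the naive state, and its inhibition is part of the medium that maintains it.

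Trib3 and Chac1 were lower after ERK induction and higher again 2 h after the MEK inhibitor, while Atf4 was lower at 4h and still below 0h in rev. Ddit3 was lower at 4h, with -0.295 (SE 0.36) in clone 4 and -1.89 (SE 0.415) in clone 8 on the log2 scale. In rev, Ddit3 was called different neither from 4h nor from 0h. At 4h the ATF4-linked genes Nupr1, Ddit4, Chac1, Trib3 and Ddit3 stood 6.21-, 4.10-, 3.38-, 2.95- and 1.97-fold below 0h, and Atf4 mRNA 1.302-fold below, the first 2 given as a description. Sesn2 and Gadd45a were instead higher, by 1.33-fold and 2.04-fold. In rev, Gadd45b was, as a description, 3.09-fold above 4h and Gadd45a 3.99-fold below it. Fold changes are from a model with group and clone over all 16 libraries, and bulk RNA cannot tell fewer expressing cells from less RNA per cell.

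**Figure D1:**
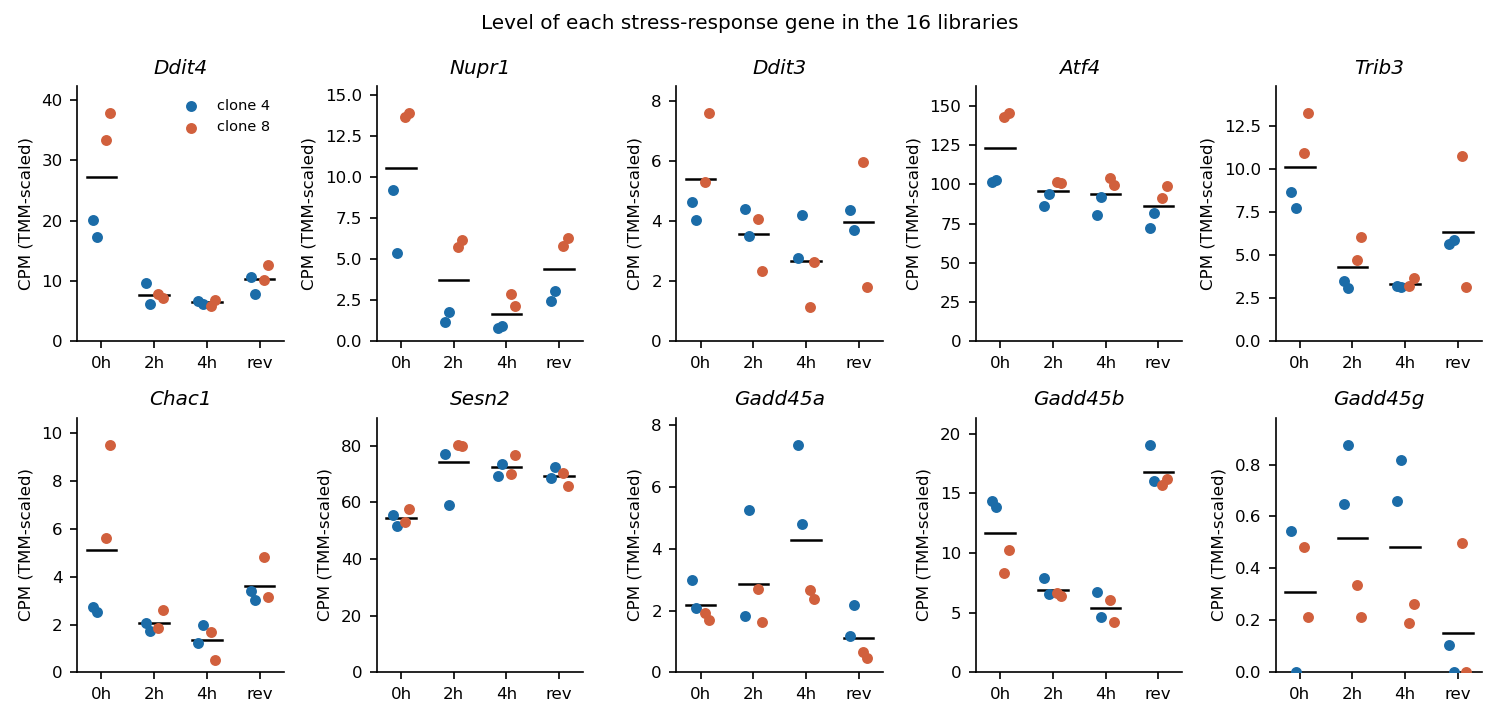
Level of the 10 stress-response genes in CPM (vertical axes, linear and starting at 0, one scale per gene) in the 4 groups; each point is a library, coloured by clone, and each black line is the mean of 4 libraries. Ddit4 at 0h (17.3 to 37.8 CPM) lies above all libraries of the other groups, Gadd45b in rev (15.7 to 19.1 CPM) above all others, and Gadd45g stays under 1 CPM.

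Compared per kilobase of exon, Atf4 was the most abundant of the 10 mRNAs, with a mean of 42.3 CPM per kb over the 16 libraries (range 30.6 to 61.7). Sesn2 came second at 19.4 CPM per kb (14.8 to 23.1), with no overlap with Atf4. Ddit4 followed with 7.34 CPM per kb (3.35 to 21.6) and Gadd45b with 6.42 (2.65 to 12.01). Trib3, Ddit3, Nupr1, Chac1 and Gadd45a had means between 2.84 and 1.48 CPM per kb, and Gadd45g came last at 0.312. From Sesn2 downward, the range of each gene overlapped that of its neighbour in this order, so that only the place of Atf4 was clear of the spread over libraries.

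Of the 10 genes, 9 passed the expression filter and were tested among 12215 genes. Gadd45g, with 0 to 7 counts per library and group totals of 7, 14, 15 and 4 counts in 0h, 2h, 4h and rev, did not pass. In 2h against 0h, 1 of the 9 was called higher and 6 lower at an adjusted p of 0.05, where 11.4% of all tested genes were called higher and 9.68% lower. At 4h against 0h, 2 were called higher and 7 lower, with 17.2% and 16.8% of all genes. At 4h against 2h, 0 were higher and 1 lower by edgeR (3.8% and 3.52% of all genes), with 3 of the 9 at an unadjusted p of 0.05. In rev against 4h, 5 were higher and 1 lower (7.93% and 8.43% of all genes), and in rev against 0h, 2 were higher and 4 lower (12.4% and 9.86%). Since these contrasts chose 3 of the members, nothing is read from these counts. Scaled by library totals alone, all tested genes split into 554 higher and 327 lower at 4h (2098 and 2048 in the model used), 57 and 1671 in rev against 4h (969 and 1030), and 105 and 905 in rev against 0h (1518 and 1204). Of the other 6 tested members, 1 was called higher and 3 lower at 2h, 2 and 4 at 4h, 2 and 1 in rev against 4h, and 1 and 2 in rev against 0h. The median log2 fold change of these 6 was -0.53 at 2h, -0.68 at 4h and 0.28 in rev against 4h, beside -0.02, -0.02 and 0.01 over all tested genes.

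**Figure D2:**
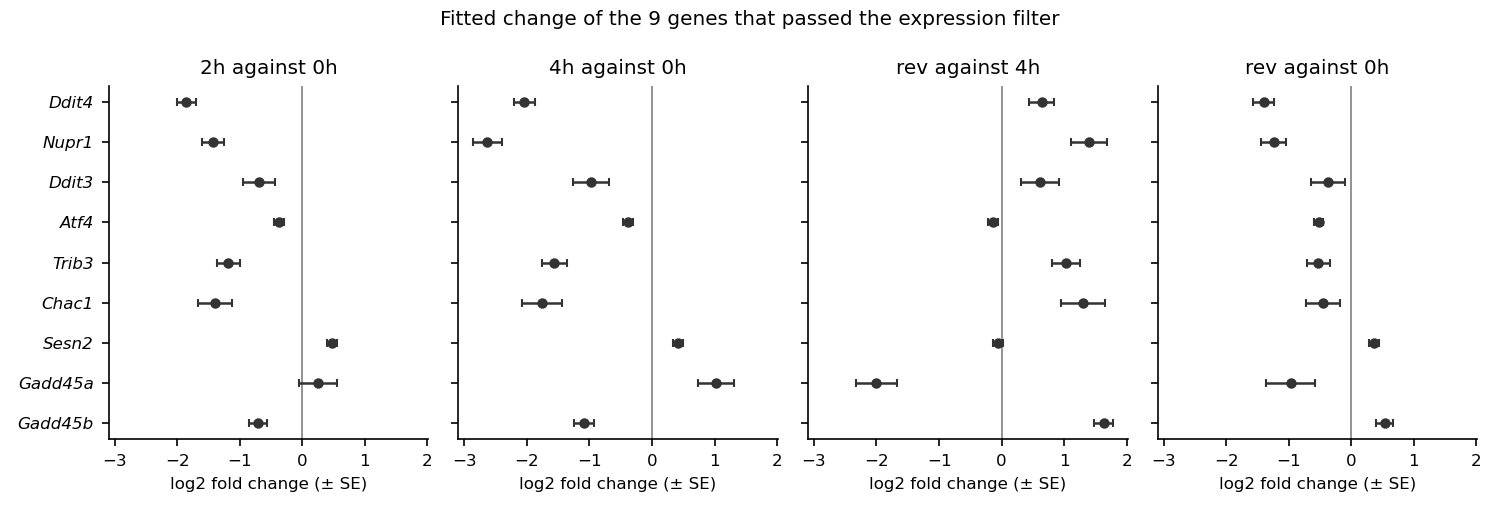
Fitted log2 fold change (horizontal axes, with SE from the edgeR quasi-likelihood model) of the 9 tested stress-response genes in 4 comparisons of 4 against 4 libraries; the grey line marks no change. At 4h against 0h, 7 genes lie to the left of the line and Sesn2 and Gadd45a to the right; in rev against 4h, Gadd45a lies far to the left at -2.0 and Gadd45b far to the right at 1.63.

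Atf4 (ENSMUSG00000042406, chr15:80255184-80257541, plus strand) encodes the transcription factor at the centre of the response, which is controlled mainly through its translation, not measured here. At 0h its level was 101 and 103 CPM in clone 4 and 143 and 145 in clone 8. It was 86.4 and 94.2 CPM in clone 4 and 101.5 and 101 in clone 8 at 2h, and 80.5, 91.8, 104.2 and 99.5 in the same order at 4h. In rev the 4 values were 72.2, 81.7, 91.1 and 99.2 CPM. Within each clone both 0h libraries were thus the highest of the 8, while across clones 0h overlapped 2h and 4h narrowly and did not overlap rev. The log2 fold change was -0.37 (SE 0.07) at 2h and -0.38 (SE 0.07) at 4h, with edgeR adjusted p of 0.000428 and 0.000163. No return was called after the MEK inhibitor: the log2 change of Atf4 in rev against 4h was -0.14 (SE 0.08, adjusted p 0.22 by edgeR), and rev stood below 0h (log2 fold change -0.52, SE 0.08, adjusted p 7e-06, or -0.86 under scaling by totals). The calls at 2h and 4h were lost when libraries were scaled by their totals alone, with values of -0.37 and -0.29 and wider SEs of 0.23. The call at 2h was also lost without the clone term, at -0.37 (SE 0.13, adjusted p 0.0712).

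The promoters of the ATF4-linked members were searched for the C/EBP-ATF response element, the composite site that ATF4 binds with C/EBP partners, spelled TGATGNAA on either strand. The windows run from 250 bases before to 50 bases after each RefSeq start site (GRCm38.p6), and all 10 members had one. A match was present in 4 of the 10, Nupr1, Chac1, Trib3 and Gadd45g, beside 3.97% of 32851 promoters of that length. The stretches of the first 3 are shown because these genes were among the deepest decreases, 5′ to 3′ on the gene's own strand, with the match in capitals (each read from the opposite strand, hence as its reverse complement).
Nupr1, chr7:126625471-126625720, minus strand: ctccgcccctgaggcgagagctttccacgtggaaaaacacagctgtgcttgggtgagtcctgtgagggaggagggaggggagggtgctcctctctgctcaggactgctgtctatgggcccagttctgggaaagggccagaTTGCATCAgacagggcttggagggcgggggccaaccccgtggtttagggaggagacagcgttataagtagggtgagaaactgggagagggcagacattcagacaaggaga
Chac1, chr2:119350992-119351241, plus strand: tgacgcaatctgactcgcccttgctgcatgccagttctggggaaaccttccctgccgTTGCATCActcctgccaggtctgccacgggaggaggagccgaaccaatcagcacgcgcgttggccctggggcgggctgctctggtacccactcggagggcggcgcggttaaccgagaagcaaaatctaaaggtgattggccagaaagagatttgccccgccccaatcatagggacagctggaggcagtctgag
Trib3, chr2:152344031-152344310, minus strand: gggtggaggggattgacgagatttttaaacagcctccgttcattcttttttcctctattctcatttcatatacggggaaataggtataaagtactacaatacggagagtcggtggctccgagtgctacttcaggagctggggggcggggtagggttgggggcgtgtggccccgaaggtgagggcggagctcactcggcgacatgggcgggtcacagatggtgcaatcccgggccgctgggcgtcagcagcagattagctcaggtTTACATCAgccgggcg
Counted from the start site, the match lay at -110 to -103 in Nupr1, at -193 to -186 in Chac1, and at 15 to 22 in Trib3, whose stretch runs on to base 30. The windows of Ddit4, Ddit3, Atf4, Sesn2, Gadd45a and Gadd45b held no such letters, although Ddit4 and Ddit3 changed in the same direction as the 3 shown. Of 6 other motifs, the E-box CACGTG was present in Nupr1, Gadd45b and Gadd45g (7.15% of all promoters), the AP-1 site TGANTCA in Ddit3 (7.81%), and the hypoxia core ACGTG, which overlaps the E-box, in these 4 and Ddit4 (19.6%). The cAMP response element TGACGTCA (1.79%), the FOXO site TGTTTAC (3.65%) and the EGR site GCGTGGG (5.04%) were in 0 of the 10 windows. A match is a description of the letters and not a measured site.

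Nupr1 (ENSMUSG00000030717, chr7:126623249-126630861, minus strand) encodes a small chromatin-associated protein induced by many stresses. At 0h it measured 9.23 and 5.37 CPM in clone 4 and 13.7 and 13.9 in clone 8. The values were 1.17, 1.75, 5.74 and 6.18 CPM at 2h and 0.77, 0.935, 2.85 and 2.10 at 4h, in the same order of libraries. In rev they were 2.45 and 3.04 CPM in clone 4 and 5.80 and 6.31 in clone 8. All 4h libraries lay below all 0h libraries, while 2h and rev overlapped 0h in that their clone 8 libraries exceeded 0h clone 4 replicate 2. As a description, the log2 fold change was -1.42 (SE 0.18) at 2h and -2.63 (SE 0.23) at 4h. The log2 difference between 2h and 4h was -1.21 (SE 0.27), with lower values at 4h in 4 of 4 same-numbered libraries. Gadd45b was lower in 4 of 4 as well (log2 difference -0.39, SE 0.17), and whether members differ in this step was not tested.

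In rev, Nupr1 stood 1.40 above 4h on the log2 scale (SE 0.29), again as a description. Its log2 difference from 0h was -1.24 (SE 0.20), so the mean level after 2 h of MEK inhibitor lay between those of 4h and 0h in both clones. Counts in the 4h libraries were 7 to 15, which limits the precision of these values.

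Ddit3 (ENSMUSG00000025408, chr10:127290774-127296288, plus strand) encodes CHOP, the C/EBP-family factor that promotes cell death in prolonged stress. Its levels were low and scattered: 4.62, 4.03, 5.31 and 7.59 CPM at 0h and 4.402, 3.50, 4.06 and 2.34 at 2h, clone 4 before clone 8. At 4h they were 2.75, 4.21, 1.14 and 2.63 CPM, and in rev 4.37, 3.69, 5.97 and 1.80. Every group overlapped every other. The log2 fold change was -0.69 at 2h (SE 0.26, edgeR adjusted p 0.0506) and -0.98 at 4h (SE 0.28, adjusted p 0.00757), the latter in the same direction in 3 of 4 same-numbered libraries. Within clone 4 it was -0.0264 (SE 0.39) at 2h and -0.295 (SE 0.36) at 4h. Within clone 8 it was -1.07 (SE 0.284) and -1.89 (SE 0.415). The call at 4h was lost without 0h clone 8 replicate 2 (adjusted p 0.0774), without 4h clone 8 replicate 1 (0.0557) and under scaling by totals (0.0582), whereas the 2h value passed in 10 of 26 alternatives and was -0.365 without 0h clone 8 replicate 2 (adjusted p 0.425). In rev, Ddit3 was not called against 4h (log2 fold change 0.61, SE 0.30, adjusted p 0.175) or against 0h (-0.37, SE 0.27, adjusted p 0.347). With 1 library left out, these 2 values ran from 0.365 to 0.956 and from -0.65 to -0.0842. Of its 1713 exon bases 186 overlap other models, chiefly the antisense gene Mars at a mean of 90.9 CPM in 0h and 73.5 in rev. Since strand use in counting is not known, reads there cannot be assigned.

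Trib3 (ENSMUSG00000032715, chr2:152337422-152344032, minus strand) encodes a pseudokinase that is induced by ATF4 and CHOP and feeds back on them and on AKT. At 0h it measured 8.69 and 7.76 CPM in clone 4 and 10.9 and 13.3 in clone 8. It was 3.50, 3.07, 4.73 and 6.04 CPM at 2h and 3.19, 3.15, 3.23 and 3.68 at 4h. All 8 libraries of 2h and 4h lay below all 4 of 0h. The log2 fold change was -1.18 (SE 0.18) at 2h and -1.56 (SE 0.20) at 4h, with edgeR adjusted p of 6.67e-06 and 2.45e-07, and both calls held in each of 26 alternatives. In rev, 3 libraries had risen to 5.65, 5.86 and 10.8 CPM, and the one that stands apart, clone 8 replicate 2, remained at 3.16 CPM with 7 counts. Rev was above 4h by 1.03 (SE 0.22, adjusted p 0.0012), or 1.17 without that library, and 0.605 under scaling by totals, where the call was lost (0.128). Its remaining distance to 0h, -0.53 (SE 0.18, adjusted p 0.0347 by edgeR), became -0.38 without that library (adjusted p 0.11) and -0.80 without rev clone 8 replicate 1, and that call was also lost without 0h clone 8 replicate 2 and without either rev library of clone 4 (0.0583 to 0.125), with the share of the 8 most abundant models as a covariate (0.0879) and without the clone term (0.124).

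Chac1 (ENSMUSG00000027313, chr2:119351229-119354381, plus strand) encodes a glutathione-degrading enzyme and is a sensitive ATF4 target. Its level at 0h was 2.72 and 2.54 CPM in clone 4 and 5.63 and 9.51 in clone 8. At 2h it was 2.07, 1.75, 1.86 and 2.63 CPM, and at 4h 1.21, 1.99, 1.71 and 0.526, the last from 2 counts. The clone 8 libraries thus came down from a higher start to the level of clone 4, and 4h did not overlap 0h. The log2 fold change was -1.40 (SE 0.27) at 2h and -1.76 (SE 0.32) at 4h, with edgeR adjusted p of 0.000268 and 5.08e-05. At 2h the groups overlapped, and the value was -0.88 without 0h clone 8 replicate 2 (adjusted p 0.037), with -0.38 (SE 0.47) within clone 4 and -1.78 (SE 0.27) within clone 8. The decrease at 4h was -0.71 (SE 0.44) within clone 4 and -2.68 (SE 0.41) within clone 8. In rev the 4 libraries measured 3.41, 3.04, 4.81 and 3.16 CPM, all above all of 4h, by 1.3 on the log2 scale (SE 0.35, adjusted p 0.00795 by edgeR). Against 0h, rev was not called different (log2 fold change -0.46, SE 0.27, adjusted p 0.235), with clone 4 at 0.33 and clone 8 at -0.85, and this value was -0.0147 without 0h clone 8 replicate 2. The rise in rev lost its call under scaling by totals, at 0.90 (SE 0.36, adjusted p 0.0695), and without the clone term, at 1.34 (SE 0.42, adjusted p 0.0621).

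Ddit4 (ENSMUSG00000020108, chr10:59949669-59951834, minus strand), also known as REDD1, encodes an inhibitor of mTORC1 that acts through the TSC complex and is induced by hypoxia, glucocorticoids, energy stress and ATF4. At 0h it measured 20.1 and 17.3 CPM in clone 4 and 33.45 and 37.8 in clone 8. The 2h libraries had 9.58, 6.13, 7.86 and 7.10 CPM and the 4h libraries 6.71, 6.19, 5.89 and 6.84. All 8 induced libraries lay in a narrow band below every 0h library, and the difference between clones seen at 0h was no longer visible. As a description, the log2 fold change was -1.85 (SE 0.16) at 2h and -2.04 (SE 0.17) at 4h. The log2 difference between 2h and 4h was -0.19 (SE 0.20).

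In rev, Ddit4 measured 10.55 and 7.82 CPM in clone 4 and 10.1 and 12.6 in clone 8, above every 4h library and below every 0h library. The log2 difference from 0h was -1.40 (SE 0.17), given as a description. That from 4h was 0.64 (SE 0.20), higher in 4 of 4 same-numbered libraries, likewise a description. It was 0.49 without rev clone 4 replicate 1 and 0.22 under scaling by totals.

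Sesn2 (ENSMUSG00000028893, chr4:132492032-132510501, minus strand) encodes a leucine sensor that restrains mTORC1 through the GATOR complexes and is a target of both p53 and ATF4. It moved the other way. Its level was 55.7, 51.5, 52.9 and 57.6 CPM at 0h and 77.2, 59.1, 80.3 and 79.8 at 2h, clone 4 before clone 8. At 4h it was 69.3, 73.5, 69.9 and 76.8 CPM and in rev 68.5, 72.3, 70.4 and 65.8. All 12 libraries after induction lay above all 4 of 0h, and the 3 later groups overlapped one another. The log2 fold change was 0.48 (SE 0.08) at 2h, 0.41 (SE 0.08) at 4h and 0.36 (SE 0.08) in rev against 0h, with edgeR adjusted p of 2.8e-05, 0.00012 and 0.00152. No change was called in rev against 4h (log2 fold change -0.05, SE 0.08, adjusted p 0.704 by edgeR). The 3 calls were lost when only library totals were used, with 0.45 at 2h, 0.515 at 4h and 0.0377 in rev against 0h (adjusted p 0.456, 0.187 and 0.924), the last close to 0.

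Gadd45a (ENSMUSG00000036390, chr6:67035096-67037457, minus strand) encodes the family member known as a p53 target that arrests cells in G2. Its level at 0h was 2.99 and 2.09 CPM in clone 4 and 1.93 and 1.71 in clone 8. At 2h it was 1.81, 5.26, 2.70 and 1.63 CPM, and at 4h 7.37, 4.79, 2.66 and 2.37. In rev the libraries had 1.17, 2.17, 0.663 and 0.451 CPM, the last 2 from 4 and 1 counts. The mean was thus highest at 4h in both clones, at 6.08 CPM in clone 4 and 2.51 in clone 8. All 4h libraries lay above all of rev, while both 0h and 2h overlapped 4h. Between 2h and 4h no change was called (log2 fold change 0.77, SE 0.27, adjusted p 0.0784 by edgeR), although the value passed in 3 of 26 alternatives (adjusted p 0.0376 to 0.0481), and it ran from 0.371 to 0.997 with 1 library left out. At 4h the log2 fold change against 0h was 1.03 (SE 0.29, edgeR adjusted p 0.00586), higher in 4 of 4 same-numbered libraries, with 1.33 (SE 0.36) in clone 4 and 0.49 (SE 0.47) in clone 8. It was 0.75 without 4h clone 4 replicate 1 (adjusted p 0.0686), 0.84 without 0h clone 4 replicate 2 (0.055), and 0.75 with the share of the 8 most abundant models as a covariate (0.0987). The 4h clone 4 replicate 1 library had the lowest such share of all.

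From 4h to rev, Gadd45a fell by 2.0 on the log2 scale (SE 0.34, edgeR adjusted p 5.22e-05), with -2.0 in clone 4 and -2.03 in clone 8, and the call held in each of 26 alternatives. Rev was also lower than 0h in 3 of 4 same-numbered libraries, though not called (log2 fold change -0.97, SE 0.40, adjusted p 0.074), and this value passed in 3 of 26 alternatives (adjusted p 0.0396 to 0.0473). Of its 1764 exon bases 337 overlap the antisense gene E230016M11Rik, which averaged 0.375 to 0.733 CPM in the groups.

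Gadd45b (ENSMUSG00000015312, chr10:80930073-80932204, plus strand) encodes the family member that binds the MAP kinase kinase MKK7 and is induced by NF-kappaB and TGF-beta signals. It measured 14.4 and 13.9 CPM in clone 4 and 8.36 and 10.3 in clone 8 at 0h. The values were 7.90, 6.57, 6.67 and 6.39 CPM at 2h and 6.71, 4.67, 6.08 and 4.21 at 4h. All 8 induced libraries lay below all of 0h. The log2 fold change was -0.70 (SE 0.15, edgeR adjusted p 0.000587) at 2h and, as a description, since the 4h libraries were used to choose the gene, -1.09 (SE 0.16) at 4h. The call at 2h was lost under scaling by totals (-0.69, SE 0.26, adjusted p 0.154). In rev the libraries reached 19.1 and 16.1 CPM in clone 4 and 15.7 and 16.2 in clone 8, above every library of the other 3 groups. As a description, rev stood 1.63 above 4h on the log2 scale (SE 0.15), 1.64 in clone 4 and 1.59 in clone 8. It stood 0.54 above 0h, the level before induction (SE 0.14), with 0.35 in clone 4 and 0.75 in clone 8, likewise a description, since the rev libraries chose the gene. Scaling by totals gave 0.25 (SE 0.25) for this last value.

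Gadd45g (ENSMUSG00000021453, chr13:51846678-51848468, plus strand), the third family member, was close to the floor. Its 4 libraries had 0.543, 0, 0.482 and 0.214 CPM at 0h and 0.647, 0.876, 0.338 and 0.213 at 2h. At 4h they had 0.66, 0.818, 0.19 and 0.263 CPM and in rev 0.107, 0, 0.497 and 0. With at most 7 counts in a library, it did not pass the filter, and differences between groups were not tested. Side by side, Gadd45b had its lowest mean at 4h and its highest in rev, Gadd45a its highest at 4h and its lowest in rev, and Gadd45g was barely detected. The genes were not tested against each other. Over the 16 libraries, the clone-centred log2 CPM of Gadd45a and Gadd45b had a Pearson r of -0.82 (n = 16), a description of points that share library and group.

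The clones were also compared in level. Of the 9, 5 were called higher in clone 8 and 2 lower, beside 15.4% and 13.7% of all tested genes (1886 and 1669 genes, or 288 and 1837 scaled by totals alone). DESeq2 called 3 of the 9 higher and 1 lower, and 1 was higher and 2 lower when scaled by totals alone. Nupr1 was higher in clone 8 by 1.31 on the log2 scale (SE 0.16, edgeR adjusted p 6.11e-08), and in each group, from 1.01 at 0h to 2.18 at 2h. Atf4 was higher in clone 8 by 0.31 (SE 0.05, adjusted p 3.18e-05) and Trib3 by 0.52 (SE 0.14, adjusted p 0.00571), also in all 4 groups. Scaled by totals alone, these became 0.043 (adjusted p 0.857) and 0.27 (0.33), and both calls were lost. Ddit4 (0.38, adjusted p 0.0252) and Chac1 (0.66, adjusted p 0.0238) were called higher in clone 8 as well. For these last 2 the difference was at 0h, 0.96 (SE 0.15) and 1.58 (SE 0.33), whereas at 4h it was -0.04 (SE 0.24) and -0.39 (SE 0.55), and both calls were lost when a 0h library of clone 4, or 0h clone 8 replicate 2, was left out (adjusted p 0.0601 to 0.229). Both were lost too under scaling by totals (0.852 and 0.282) and with DESeq2 (0.11 and 0.106). The Ddit4 call was also lost without 0h clone 8 replicate 1 (0.0505), and the Trib3 call without rev clone 8 replicate 1 (0.0535).

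Both GADD45 genes leaned the other way. Gadd45a was lower in clone 8 by 0.77 (log2 difference -0.77, SE 0.23, edgeR adjusted p 0.00911), most at 4h (-1.26, SE 0.37) and in rev (-1.30, SE 0.73), and the call was lost with the share covariate (-0.63, adjusted p 0.0625). Gadd45b was lower by 0.29 (log2 difference -0.29, SE 0.11, adjusted p 0.0397), with -0.57 (SE 0.19) at 0h and -0.11 to -0.21 in the other groups, and this call was lost in 13 of 23 alternatives (adjusted p up to 0.106). Sesn2 and Ddit3 were not called different between clones.

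**Figure D3:**
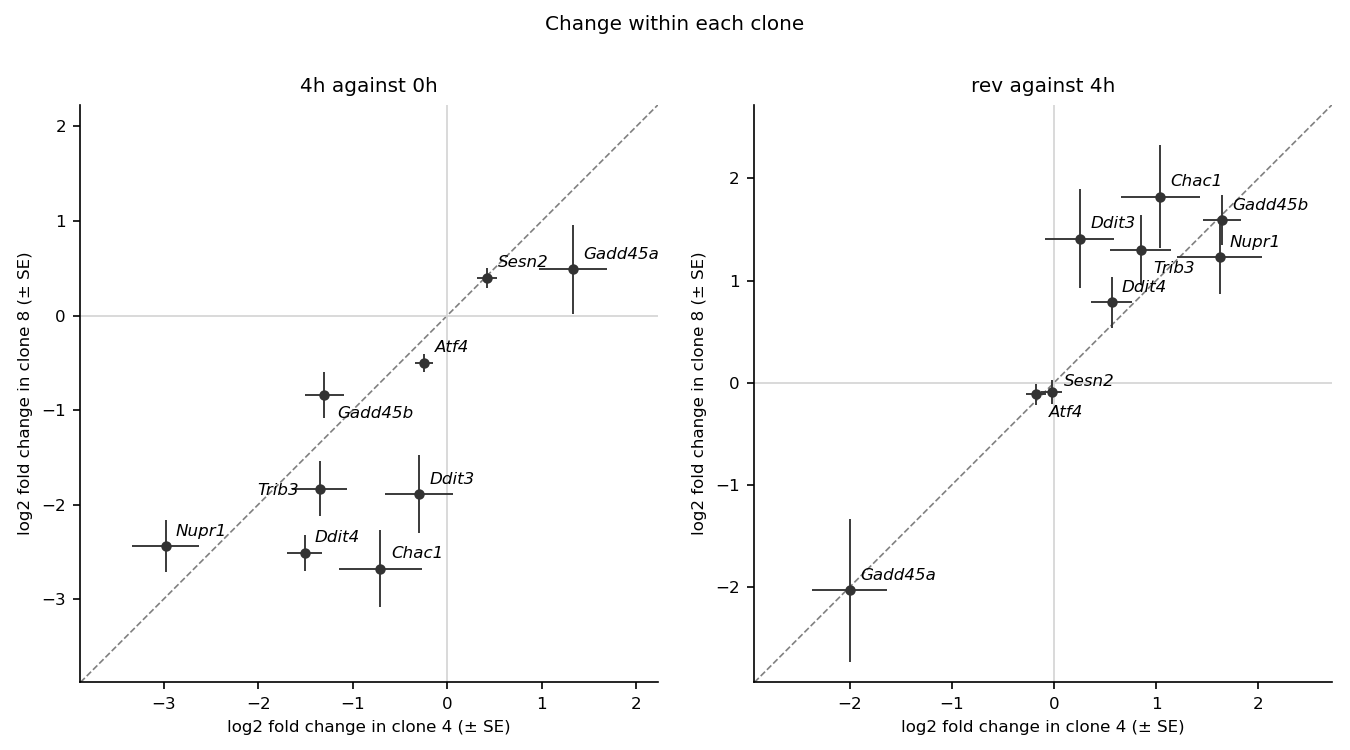
Log2 fold change of the 9 tested genes within clone 4 (horizontal axis) and within clone 8 (vertical axis), each with its SE from 2 against 2 libraries, for 4h against 0h (left) and rev against 4h (right); the dashed line marks equal change. Chac1, Ddit3 and Ddit4 lie below the line at 4h, with -2.68, -1.89 and -2.51 in clone 8 against -0.71, -0.29 and -1.51 in clone 4, but no difference between clones was called.

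The response itself was compared between clones with a model of 8 group and clone cells. None of the 9 genes was called different between clones at 2h against 0h, at 4h against 0h or in rev against 4h (edgeR), where 0.0901%, 0.311% and 0.00819% of all tested genes were. With 1 library left out, the counts behind these shares, 5 higher and 6 lower at 2h and 15 and 23 at 4h, ran from 0 to 19 and 0 to 18 at 2h and from 2 to 56 and 3 to 46 at 4h. At an unadjusted p of 0.05, 5, 3 and 0 of the 9 genes passed. The share of all tested genes at that unadjusted threshold was not taken, so nothing is read from these counts. As a description, the log2 fold change of Ddit4 at 2h was -1.09 (SE 0.20) in clone 4 and -2.26 (SE 0.15) in clone 8. This clone difference, -1.18 (SE 0.26), lay just short of the threshold (edgeR adjusted p 0.05125). It passed in 4 of 22 alternatives (adjusted p 0.0179 to 0.0498). The sign of the fitted change at 4h against 0h was the same in both clones for each of the 9 genes, and likewise in rev against 4h. Some of these values were smaller than their SE. Examples are Ddit3 at 4h in clone 4 (-0.295, SE 0.36) and Sesn2 in rev against 4h (-0.0237, SE 0.102, in clone 4 and -0.0905, SE 0.115, in clone 8). The share of all tested genes with equal sign was not taken.

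ATF4 has many targets besides these members, and a list of 28 in amino acid supply, one-carbon metabolism and tRNA charging was counted, of which 27 were tested. At 4h against 0h, 12 were called lower and 3 higher, where 16.8% and 17.2% of all tested genes were, with a median log2 fold change of -0.17 beside -0.02 over all tested genes. Among the lower genes were Slc6a9, a glycine transporter, from 2.91 ± 1.07 to 1.08 ± 0.412 CPM (SD, n = 4), and Slc1a4, a neutral amino acid transporter, from 23.1 ± 3.35 to 8.89 ± 2.05 CPM. Gpt2, the mitochondrial alanine aminotransferase, went from 70.8 ± 29.6 to 31.9 ± 6.27 CPM. Their log2 fold changes were -1.46, -1.38 and -1.10, with edgeR adjusted p of 0.000357, 9.09e-10 and 2.2e-11. Asparagine synthetase (Asns), a classical ATF4 target, was at 368 ± 27.5 CPM at 0h and 353 ± 23.8 at 4h and was not called (log2 fold change -0.06, SE 0.07, adjusted p 0.562), and the arginine transporter gene Slc7a3 rose by 0.74. The list thus did not move as one. Without 0h clone 8 replicate 2, 7 were lower, 6 without the clone term, and 4 scaled by totals alone.

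In rev against 4h, 2 of these targets were called higher and 3 lower (7.93% and 8.43% of all tested genes), and in rev against 0h, 2 were higher and 11 lower (12.4% and 9.86%). Gpt2 rose by 0.33 (SE 0.10, edgeR adjusted p 0.0193), while Psat1, an enzyme of serine synthesis, fell by 0.44 (SE 0.08, adjusted p 0.000104) and Slc7a3 by 0.42 (SE 0.10, adjusted p 0.00292). The 2 higher calls were lost without 4h clone 8 replicate 1 or 2, or without either rev library of clone 4, and 1 was left without 4h clone 4 replicate 1 or rev clone 8 replicate 1. Of 7 tested partner factors of ATF4, where 17.2% and 16.8% of all genes were called higher and lower, 1 was higher at 4h (Cebpd, log2 fold change 1.08, SE 0.40, adjusted p 0.0343) and 1 lower (Jdp2, -1.61, SE 0.26, adjusted p 7.87e-06). Cebpd had means of 0.785 CPM at 0h, near the floor, and 1.75 CPM at 4h. The Cebpd call was lost without 0h clone 4 replicate 2, 0h clone 8 replicate 2, 4h clone 4 replicate 2 or either 4h library of clone 8, and 2 were lower without 0h clone 4 replicate 1.

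**Figure D4:**
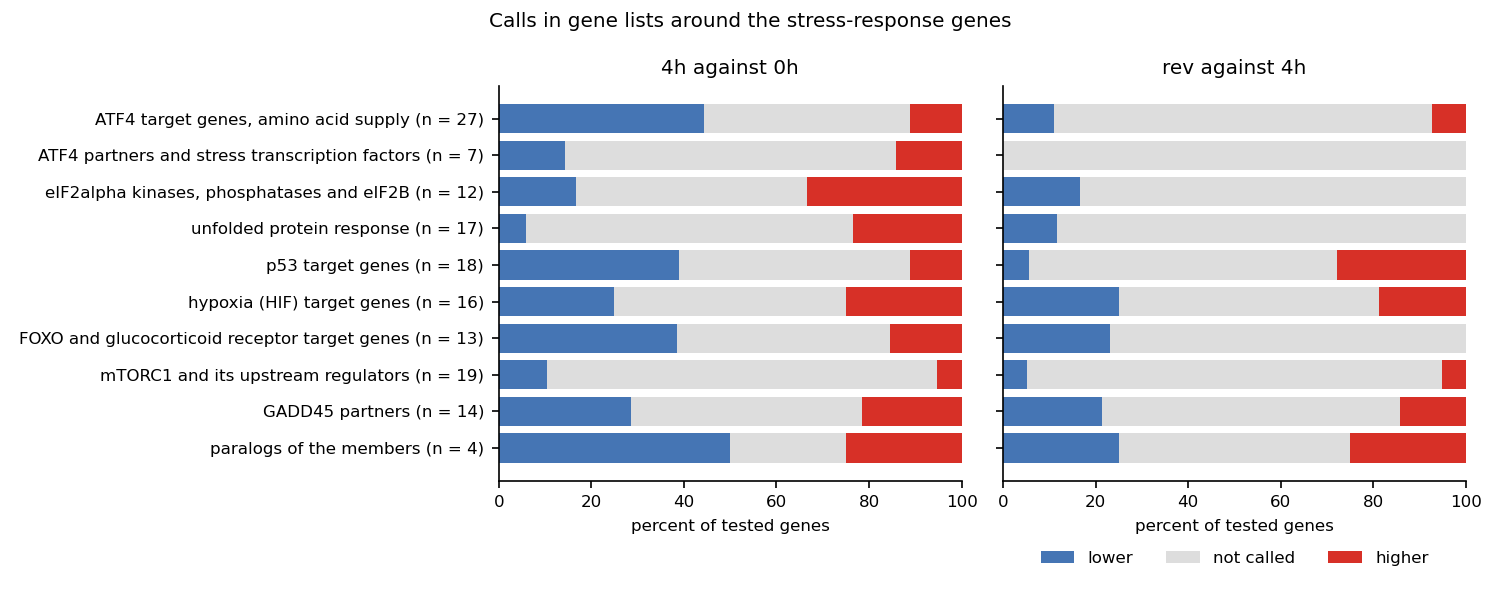
Percent of the tested genes of 10 gene lists (rows, with the number tested) that were called lower (blue), not called (grey) or higher (red) at 4h against 0h (left) and in rev against 4h (right). In the list of ATF4 target genes of amino acid supply, 12 of 27 were lower at 4h; over all tested genes, 16.8% were lower and 17.2% higher at 4h.

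Paralogs of Trib3, Sesn2 and Ddit4 passed the filter, and these did not all follow them. Trib1, a paralog of Trib3, averaged 7.89 ± 1.93 CPM before induction and 20.8 ± 3.91 CPM after 4 h (SD, n = 4; log2 fold change 1.42, SE 0.13, edgeR adjusted p 1.38e-10) and fell by 1.31 in rev (SE 0.13, adjusted p 5.48e-09), whereas Trib3 went the other way in both steps. Sesn1, a paralog of Sesn2 and a p53 target, fell from 18.5 ± 1.84 to 9.55 ± 1.10 CPM (log2 fold change -0.97, SE 0.14, adjusted p 1.88e-06) and rose by 0.80 in rev (SE 0.15, adjusted p 0.000183). Sesn3 fell by 0.34 at 4h (SE 0.09, adjusted p 0.00602). Ddit4l, a paralog of Ddit4, averaged 2.25 CPM at 0h and 2.40 CPM at 4h and was not called (log2 fold change 0.05, SE 0.28, adjusted p 0.904 by edgeR). In all, 4 of 7 listed paralogs were tested, with 1 higher and 2 lower at 4h (17.2% and 16.8% of all tested genes) and 1 each way in rev against 4h (7.93% and 8.43%).

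Of 18 tested p53 targets, 2 were higher and 7 lower at 4h, beside 17.2% and 16.8% of all tested genes, and 5 were higher and 1 lower in rev against 4h, beside 7.93% and 8.43%. Pmaip1, which encodes the cell death activator NOXA, went up from 9.59 ± 7.37 CPM (0h) to 48.5 ± 14.4 CPM (4h) and fell by 1.44 in rev (SE 0.15, edgeR adjusted p 1.04e-08). Bbc3, which encodes PUMA, was higher in rev than at 4h by 0.75 (SE 0.17, adjusted p 0.00164). Perp rose and Gdf15 fell at 4h, by 1.54 and 1.01 on the log2 scale (adjusted p 0.000296 and 0.00148). Perp had means of 0.92 CPM at 0h, near the floor, and 2.58 CPM at 4h. The 7 lower genes were 4 without 4h clone 4 replicate 1, and the 5 higher ones were 3 without rev clone 8 replicate 1. Scaled by totals alone, 2 were lower at 4h, and the 5 higher calls in rev against 4h were lost, as were those of the other lists.

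Among 14 tested partners of the GADD45 proteins (the p38 and JNK kinase arm, cell cycle and repair), 3 were higher and 4 lower at 4h (17.2% and 16.8% of all tested genes), and 2 higher and 3 lower in rev against 4h (7.93% and 8.43%). Mapk11, which encodes p38beta, went up from 0.836 ± 0.565 CPM (0h) to 6.79 ± 2.82 CPM (4h) (SD, n = 4; log2 fold change 2.80, SE 0.32, edgeR adjusted p 1.92e-08) and was back at 1.61 ± 0.525 CPM in rev. Like Gadd45a, it had its highest mean at 4h. The upstream kinase gene Map2k6 fell by 0.79 at 4h (SE 0.15, adjusted p 8.43e-05), and Map2k4 rose by 0.51 (SE 0.10, adjusted p 0.00017). Ercc5, a repair endonuclease gene, was higher in rev than at 4h by 0.68 (SE 0.14, adjusted p 0.000782), and so was Map2k3 by 0.36 (SE 0.13, adjusted p 0.0434). Of the 2 higher calls, 1 was lost without 2h clone 4 replicate 1, either 2h or either rev library of clone 8, or any 4h library.

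Around mTORC1, the complex that DDIT4 and SESN2 restrain, 1 of 19 tested genes was higher and 2 were lower at 4h, and 1 was called each way in rev against 4h. Over all tested genes, 17.2% and 16.8% were called at 4h and 7.93% and 8.43% in rev against 4h. Rraga, a Rag GTPase that carries the amino acid signal, rose by 0.64 at 4h (SE 0.09, edgeR adjusted p 1.11e-06) and fell by 0.33 in rev (SE 0.09, adjusted p 0.0115). Its relative Rragb fell by 1.01 at 4h (SE 0.29, adjusted p 0.00627), and Depdc5, a subunit of GATOR1, fell by 0.35 (SE 0.08, adjusted p 0.00106). Of the 2 lower calls, 1 was lost without 0h clone 4 replicate 2.

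The members were also compared by their pattern over the 16 libraries, as the Pearson r of log2 CPM centred within each clone. These values are descriptions, since the points share library, depth and group. Ddit4 and Nupr1 had an r of 0.83 (n = 16), Nupr1 and Trib3 0.82, Ddit4 and Trib3 0.79, and Ddit4 and Sesn2 -0.79. Atf4 had 0.75 with Ddit4 but -0.08 with Gadd45b. Among 8640 genes of at least 5 CPM on average, those closest to Ddit4 were Ppfia4 (0.92), Cchcr1 (0.92), Ano9 (0.91), Wdr76 (0.91) and Stat2 (0.91). Closest to Nupr1 were Atg4b (0.95), Ankrd12 (0.95), Gtf2ird1 (0.94), Helz (0.94) and D230025D16Rik (0.94), and closest to Gadd45b were Fgfr1 (0.96), Fgf4 (0.95), Lefty1 (0.94), Arhgef10l (0.94) and Rgma (0.94). Without centring, the genes named for Ddit4 ranked from 1 to 4 except Cchcr1, at 127, and those named for Gadd45b from 1 to 3 except Fgf4, at 29, and Rgma, at 20. The 5 genes named for Nupr1 ranked between 67 and 1130.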

How the data were processed

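RNA-seq libraries were made from rRNA-depleted total RNA with the NEBNext Ultra II kit, per the labels' protocols. The deposited table holds raw counts per Ensembl gene made by the authors; bcl2fastq 2.19.1, STAR 2.5.3a and the mm10 build are named in the submitters' processing notes, while the counting tool, the annotation and the strand setting are not given in the sources used here. Identifiers were matched to GENCODE M21 (GRCm38) for symbols, positions and exon lengths, 52489 of 52636 with success.

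The edgeR package (4.0.16, under R 4.3.3) was used for the analysis. The 12215 genes kept by filterByExpr were scaled with TMM (factors 0.463 to 1.47), and its quasi-likelihood fit took group and clone as terms over the 16 libraries. Tests were two-sided contrasts with Benjamini-Hochberg adjustment over all tested genes at 0.05, and SEs came from the log2 fold change and F. The response was compared between clones in a model of 8 group and clone cells. CPM use TMM-scaled totals. The steps were tested on simulated data.

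The members and the gene lists were chosen with earlier results of these data known. Named were all members, per list up to 3 genes with the largest called change in each of 4h against 0h and rev against 4h, the 5 genes most like Ddit4, Nupr1 and Gadd45b, and Dusp6; Asns and the rise of Slc7a3 were named after their values were seen, as were genes given in a second comparison. Alternatives were RLE factors, totals alone, no filter, a mean of at least 1 CPM, removal of the 8 most abundant models or their share as a covariate, no clone term, the replicate block, only the compared groups, DESeq2 1.42.0, and leaving out each library. Promoters are from RefSeq (GRCm38.p6).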

Additional observations from a re-analysis of the deposited data

Results flagged for a closer look

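Of 44 groups of 4 libraries examined for a value far from the other 3, over the 10 genes and Dusp6, 3 were singled out, and chance alone does so in about 1 of 20. Sesn2 was at 59.1 CPM in 2h clone 4 replicate 2, the shallowest library, while the other 2h libraries had 77.2 to 80.3 CPM. Gadd45b was at 19.1 CPM in rev clone 4 replicate 1, with 15.7 to 16.2 CPM in the other rev libraries. Trib3 was at 3.68 CPM in 4h clone 8 replicate 2, with 3.15 to 3.23 CPM in the other 4h libraries, a small step that stands out because those 3 lie so close together.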

How the results depend on the processing

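The decreases of Trib3 and Chac1 at both induction times and that of Gadd45a from 4h to rev passed in each of 26 alternatives. With library totals alone, the median of all genes moved to -0.41 in rev against 4h, members called higher were 0 at 2h, 1 at 4h, 2 in rev against 4h, 0 in rev against 0h and 1 between clones, and 0 were lower at 4h against 2h. That scaling reversed the 4h against 2h values of Atf4 (0.0862) and Sesn2 (0.0631), the clone value of Sesn2 (-0.19), and the clone differences of Atf4 in rev against 4h (-0.12), of Gadd45a (-0.10) and Trib3 (-0.00208) at 2h, and of Gadd45b (-0.18) and Nupr1 (-0.041) at 4h. Over all genes it called 204 higher and 134 lower at 2h, 554 and 327 at 4h, 88 and 12 from 2h to 4h, 57 and 1671 from 4h to rev, 105 higher in rev against 0h and 288 higher in clone 8. Without the clone term, 2 members were higher in rev against 4h and 0 lower at 4h against 2h, and all-gene counts were 747 and 462 at 2h, 1323 lower at 4h, 129 and 90 from 2h to 4h, 418 and 463 from 4h to rev, and 876 and 576 in rev against 0h. The share covariate left 1 member higher at 4h and 0 lower in clone 8, gave 0.0362 for the clone value of Ddit3 and 0.41 for the clone difference of Trib3 at 4h, and called 577 and 652 genes in rev against 4h. With no filter, 1 member was higher at 4h against 2h, 1 lower in clone 8 and 1 lower in the clone difference at 2h, with 38 and 30 genes in all for that difference, 56 and 71 at 4h and 10 and 6 from 4h to rev. DESeq2 called 3 members higher and 1 lower in clone 8.

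Leaving out 1 library gave 1 to 2 members higher at 4h against 0h, 0 to 1 higher at 4h against 2h, 3 to 5 higher and 1 to 2 lower in clone 8, and 0 to 1 lower in the clone difference at 2h. Over all genes, 743 were lower at 2h without 0h clone 8 replicate 2, and 644 higher in rev against 4h without 4h clone 4 replicate 1. At 4h against 2h, 303 were higher and 261 lower without 2h clone 4 replicate 1, 306 and 278 without 4h clone 4 replicate 2, and 260 and 274 were lower without replicate 1 of 4h clone 4 and clone 8. Uncalled values that changed sign ranged from -0.18 to 0.11 for the clone value of Ddit3, from -0.00042 to 0.60 for Gadd45a at 2h, and at 4h against 2h from -0.32 to 0.071 for Ddit4 and -0.0588 to 0.0268 for Atf4. Clone differences at 2h ranged from -0.10 to 0.24 for Trib3, -0.86 to 0.66 for Gadd45a and -0.0026 to 0.40 for Sesn2, and at 4h from -0.0869 to 0.0511 for Sesn2. From 4h to rev they ranged from -0.0302 to 0.17 for Atf4, -0.33 to 0.27 for Gadd45b, -0.23 to 1.79 for Ddit3, -0.55 to 0.33 for Gadd45a and -0.97 to 0.80 for Trib3. The cause of these shifts was not tested. No label says that same-numbered libraries were handled together, and the residuals of 12 same-numbered pairs had r from -0.32 to 0.19. The replicate block called the same number of members in each comparison, 1 higher and 6 lower at 2h and 2 and 7 at 4h, with -2.04 for Ddit4 at 4h. Low counts of Nupr1, Chac1, Gadd45a and Gadd45g limit their precision.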

Other observations

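Other stress arms were described in the same way, from lists chosen with earlier results known. Of 17 tested genes of the unfolded protein response, 4 were higher and 1 lower at 4h against 0h (17.2% and 16.8% of all tested genes), and 2 were lower in rev against 4h (7.93% and 8.43% of all genes were higher and lower). Herpud1, a component of endoplasmic-reticulum-associated degradation, fell by 0.85 on the log2 scale at 4h (SE 0.15, edgeR adjusted p 4.12e-05), whereas Xbp1, a transcription factor of that response, rose by 0.32 (SE 0.10, adjusted p 0.0115) and fell by 0.45 in rev (SE 0.10, adjusted p 0.00217). Atf6 rose by 0.29 at 4h (SE 0.11, adjusted p 0.034). When 1 library was left out, the 4 higher calls ranged from 1 to 4, with 1 without 0h clone 4 replicate 2 or 0h clone 8 replicate 2 and 2 without 0h clone 8 replicate 1, 2h clone 4 replicate 1, 4h clone 4 replicate 1 or rev clone 4 replicate 1. In rev against 4h, 1 was lower without 4h clone 8 replicate 1, rev clone 4 replicate 1 or rev clone 8 replicate 1. Among 12 kinases, phosphatases and subunits around eIF2alpha, 4 were higher and 2 lower at 4h and 2 lower in rev against 4h, beside the same shares of all genes. Ppp1r15a, the stress-induced eIF2alpha phosphatase subunit and an ATF4-linked gene, fell by 0.35 at 4h (SE 0.13, adjusted p 0.0389), as did Eif2ak4, the amino acid sensor GCN2 (0.35, SE 0.09, adjusted p 0.00361). The largest of the 4 rises was that of the subunit gene Eif2b4 (0.33, SE 0.09, adjusted p 0.00658). In rev against 4h, the larger of the 2 falls was that of Eif2s1 (log2 fold change -0.51, SE 0.10, adjusted p 0.000388). The 4h counts of this list were 1 and 1 without 0h clone 8 replicate 2 or 4h clone 8 replicate 1 and 2 and 1 without 4h clone 4 replicate 1, and 1 was lower without 0h clone 4 replicate 1.

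Hypoxia and hormone signals also act on Ddit4. Of 16 tested HIF targets, 4 were higher and 4 lower at 4h (17.2% and 16.8% of all tested genes), and 3 higher and 4 lower in rev against 4h (7.93% and 8.43%), the latter 2 without either rev library of clone 4. Vegfa fell from 47.0 ± 5.12 to 24.3 ± 3.20 CPM at 4h (SD, n = 4; log2 fold change -0.93, SE 0.09, edgeR adjusted p 1.34e-09), while Ankrd37 rose by 1.23 (SE 0.37, adjusted p 0.00927). Ankrd37 had means of 0.94 CPM at 0h, near the floor, and 2.25 CPM at 4h. Of 13 tested FOXO and glucocorticoid receptor targets, 2 were higher and 5 lower at 4h, and 3 lower in rev against 4h, beside those shares. Without 0h clone 4 replicate 2, 0h clone 8 replicate 1, 4h clone 4 replicate 2 or 4h clone 8 replicate 1, 1 was higher at 4h. Tsc22d3, which encodes the glucocorticoid-induced protein GILZ, fell by 1.59 at 4h (SE 0.34, adjusted p 0.000367), from a mean of 2.75 to 0.872 CPM, near the floor. Irs2 rose by 1.3 at 4h (SE 0.12, adjusted p 6.1e-11) and fell by 0.70 in rev (SE 0.11, adjusted p 1.86e-05).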
